A study of Mus musculus with 4 samples.

Results

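The Wnt pathway genes measured here were 54 genes with 85 probe sets, out of 12394 named genes and 22690 probe sets in the table. They were taken by gene name: the Wnt ligands, the Fzd receptors, the Sfrp and Dkk antagonists, Axin1 and Axin2, the Tle co-repressors, and Ctnnb1, Apc, Lef1, Tcf7l1, Tcf7l2, Notum, Lrp5, Lrp6, Lgr5 and Rnf43. No probe set carried Tcf7 as its single gene name. The RNA came from YAMC cells, a line of conditionally immortalised colon epithelial cells from young adult mice. One group was left untreated and the other, called LGG here, was kept for 16 h in medium conditioned by Lactobacillus GG, a probiotic bacterium. Each group had 2 arrays of the mouse 430A type, and the titles place 1 array of each group at date 1 and 1 at date 2. What the dates mark is not given, and nothing says that the arrays of a group came from separate cultures. The p-values therefore measure only spread between these arrays, taken largely from all probe sets, and that spread may be technical. Beside the untreated group, no cells given a changed medium without LGG products were used here. An action of those products and one of the changed medium therefore cannot be told apart.

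Wnt proteins are secreted, lipid-modified ligands that bind Frizzled receptors, together with Lrp5 or Lrp6 when the signal runs through beta-catenin. Without a ligand, a complex built on Axin and Apc marks beta-catenin, the product of Ctnnb1, for destruction. With one, beta-catenin reaches the nucleus and joins the TCF/LEF factors, which are otherwise held silent by Tle co-repressors. In the colon this signal keeps the stem cells of the crypt dividing, and other Wnt ligands act on cell shape and movement without beta-catenin.

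Of the 85 probe sets, 34, for 26 genes, had values on all arrays and a mean intensity of at least 101, the minimum for testing, and 10333 probe sets were tested in all. On the deposited linear scale the arrays had trimmed means of 500.1 to 513.5. The Gapdh control probe sets, which read RNA integrity, gave 3'/5' ratios of 0.805 and 0.784 untreated and of 0.931 and 0.768 with LGG, dates 1 and 2 in turn. Of the 15 epithelial markers with values at both dates, 5 were bright enough to be tested, with Krt8 at 431 to 653.3 on its brighter probe set, Krt18 at 834.8 to 1966.8 and Elf3 at 186.9 to 276.7, beside Krt7 and Krt19. The other 10 were dim: Epcam lay between 6.0 and 9.0 on the 4 arrays, Cdh1 between 8.7 and 41.8 and Vil1 between 1.7 and 10.5. Of 13 mesenchymal markers 10 were tested, among them Col1a1 between 6568.6 and 10156.3 and Sparc between 12250.3 and 15878.4 on its brighter probe set, while Pdgfrb (8.5 to 80.1 over its probe sets), Thy1 (51.4 to 93.7) and Lum (59.8 to 88.6) were dim. These markers go against an epithelial label in part. The summed intensity of the 15 epithelial markers was 3301 and 4247 on the untreated arrays of dates 1 and 2 and 4091 and 3435 on the LGG arrays. That of the 13 mesenchymal markers was 65840 and 56317 untreated and 57462 and 52992 with LGG, and its part in the results below was not tested. Of the marker probe sets, limma called 1 of 13 mesenchymal ones lower, Dcn, or 7.69% against 3.86% of all tested. Of 6 epithelial ones limma called 0 (3 at an unadjusted p under 0.05). It called 1 of 3 leukocyte probe sets, Cd68, and the only endothelial one tested, Kdr, higher, against 2.69% of all tested. Ptprc, which defines leukocytes, lay between 15.4 and 37.2, and Pecam1, which defines endothelium, between 12.1 and 48. Whether such cells were present was not tested. The 8 leukocyte markers summed to 994 and 783 untreated and 1041 and 942 with LGG.

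**Figure D1:**
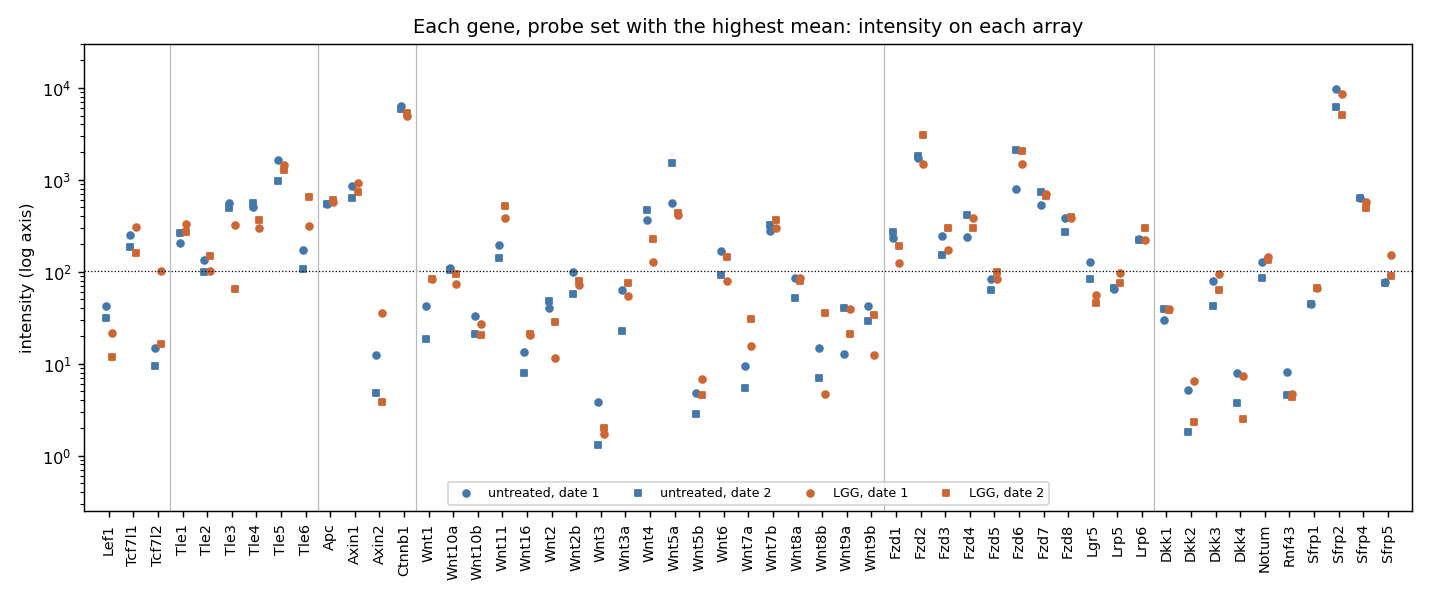
Intensity (log axis) of 53 Wnt pathway genes on each array, for the probe set of each gene with the highest mean among those with values at both dates, with untreated arrays in blue, LGG arrays in orange, circles for date 1 and squares for date 2. The dotted line is the minimum mean of 101 for testing, and most Wnt ligands and all Dkk genes have means below it.

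After LGG conditioned medium the ligand gene Wnt11 and the Tle family gene Tle6 were higher. The ligand genes Wnt4 and Wnt5a were lower, as were 1 probe set each of the receptor gene Fzd2, the co-repressor gene Tle3 and Ctnnb1. In the fit 2 of the 34 probe sets tested were called higher and 5 lower, against 2.69% and 3.86% of all probe sets tested (limma with date as a block, adjusted p under 0.05). In either direction these were 20.6% of the 34 and 6.55% of all. The comparison of the shares is a description, since the list was chosen with earlier results known. The median log2 change was 0.07 over the 34 and 0.01 over all probe sets tested. On 16 of the 34 the groups did not overlap, against 47.0% of all tested, a share near that background. Each of the 7 called probe sets had means above 101 in both groups. Log2 changes and log2 ratios are on the scale log2(intensity + 25.2), which understates the change of dim genes, while a fold given for a date is the plain ratio of the 2 intensities. In bulk RNA fewer cells of a type and less RNA per cell cannot be told apart.

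The calls rest on few arrays. limma took 12.5 prior degrees of freedom from all probe sets and had 1 residual one. Each SE and p-value thus rests mainly on the spread of all probe sets of like intensity, and less on the gene's own arrays. For Wnt5a the log2 ratios, -0.41 at date 1 and -1.75 at date 2, lay far apart beside an SE of 0.29. A two-sided permutation test that keeps the pairs of each date cannot go below 0.5. Without date as a block only Fzd2 was called among the 34 (limma adjusted p = 0.0388), against 0.939% of all. With no filter on dim probe sets limma called 0 of 72 (17 at an unadjusted p under 0.05), and also 0 of all 16319 (2296). With 1 array left out the block cannot be fitted, and limma called 0 of the 34 without untreated replicate 1 or untreated replicate 2 (5 and 7 at an unadjusted p under 0.05), where it also called 0 of all 10333 (729 and 818). It called 5 of the 34 without LGG replicate 1, against 6.17% of all, and 3 without LGG replicate 2, against 3.13% of all. The replicate numbers are those of the dates.

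**Figure D2:**
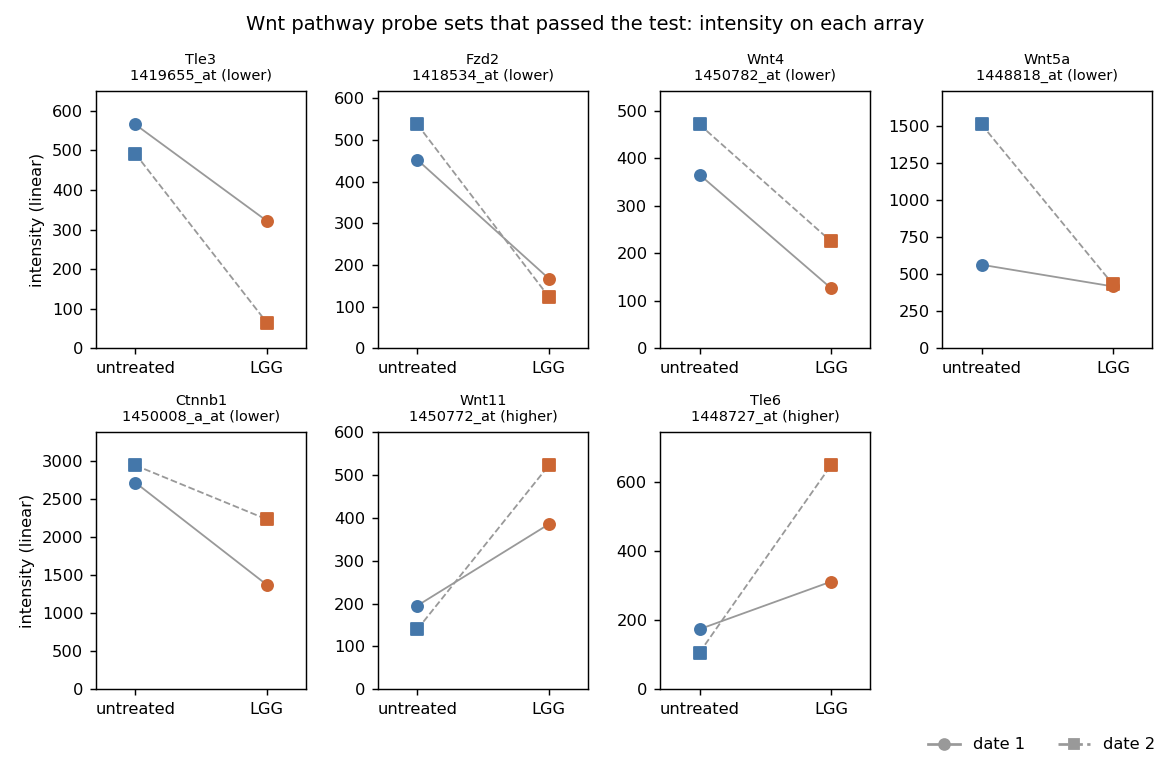
Intensity (linear axis from 0) on each array for the 7 Wnt pathway probe sets that passed the test, with circles and solid lines for date 1 and squares and dashed lines for date 2. Both LGG arrays lie below both untreated arrays for Tle3, Fzd2, Wnt4, Wnt5a and Ctnnb1, and above them for Wnt11 and Tle6.

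Among the ligands, 1 rose and 2 fell of the 5 probe sets tested, against 2.69% and 3.86% of all tested. Wnt11, a ligand known for cell movements in the embryo and for branching of the kidney duct, measured 195.4 and 140.3 on the untreated arrays of dates 1 and 2 and 385.6 and 523 on the LGG arrays. Both LGG arrays were above both untreated arrays, and the rise was larger at date 2. Its log2 change was 1.31 ± 0.27 (SE; n = 2 arrays per group, limma adjusted p = 0.0114), a rise from 168 ± 39.0 to 454 ± 97.2 (SD). The ratio was 1.97-fold at date 1 and 3.73-fold at date 2. The call was lost without the date block on all 4 arrays (limma adjusted p = 0.0709). With an LGG array left out, and so no block, the log2 change was 1.10 without LGG replicate 2 and 1.52 without LGG replicate 1.

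Wnt4, a ligand needed for kidney tubule formation and ovary development, measured 365.9 and 471.4 untreated and 126.9 and 225.6 with LGG. The groups did not overlap, and the LGG value was under 50% of the untreated value at each date, 2.88-fold lower at date 1 and 2.09-fold lower at date 2. It fell from 419 ± 74.6 to 176 ± 69.8, a log2 change of -1.17 ± 0.25 (n = 2 per group, limma adjusted p = 0.0143). It was not called without the date block on all 4 arrays (limma adjusted p = 0.12). With an LGG array left out, and so no block, the log2 change was -0.81 without LGG replicate 1 and -1.54 without LGG replicate 2.

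Wnt5a, a ligand that mostly acts without beta-catenin and drives the lengthening of limbs and gut, measured 563.9 and 1509.7 untreated and 417.6 and 431.2 with LGG. The LGG arrays were alike and the untreated arrays were far apart, so the size of the fall depended on the date, 1.35-fold at date 1 and 3.50-fold at date 2. The fitted log2 change was -1.08 ± 0.29 (n = 2 per group, limma adjusted p = 0.0394). Without untreated replicate 2, and so without the date block, it was -0.39, and without untreated replicate 1 it was -1.77. The call was lost without the block on all 4 arrays (limma adjusted p = 0.251). The call was also lost under each other filter and scaling tried (limma adjusted p from 0.0522 upward). A second Wnt5a probe set had values at date 2 only, where it measured 2547.1 untreated and 956.6 with LGG, a log2 ratio of -1.39. That value comes from the same 2 arrays as the larger of the falls just given.

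The other ligands tested, Wnt7b and Wnt6, did not pass. Wnt7b, which signals in lung and skin epithelium, measured 276.2 and 324.9 untreated and 296.6 and 365.9 with LGG (log2 change 0.13 ± 0.24, n = 2 per group, limma adjusted p = 0.825). Wnt6 measured 169.9 and 92.1 untreated and 80.2 and 145.4 with LGG, so it was lower at date 1 and higher at date 2. The other 16 ligand probe sets with values at both dates had means of 2.2 to 95.5 and were not tested. They belong to Wnt1, Wnt2, Wnt2b, Wnt3, Wnt3a, Wnt5b, Wnt7a, Wnt8a, Wnt8b, Wnt9a, Wnt9b, Wnt10a, Wnt10b and Wnt16, and to a second probe set of Wnt7b. Among them Wnt1, the founding ligand of the family, measured 42.7 and 18.5 untreated and 82.7 and 82.6 with LGG, both LGG arrays above both untreated ones. Wnt2 measured 40.6 and 47.7 untreated and 11.5 and 28.7 with LGG, the reverse order. Intensities this low have no bound against background here, and no test was made.

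**Figure D3:**
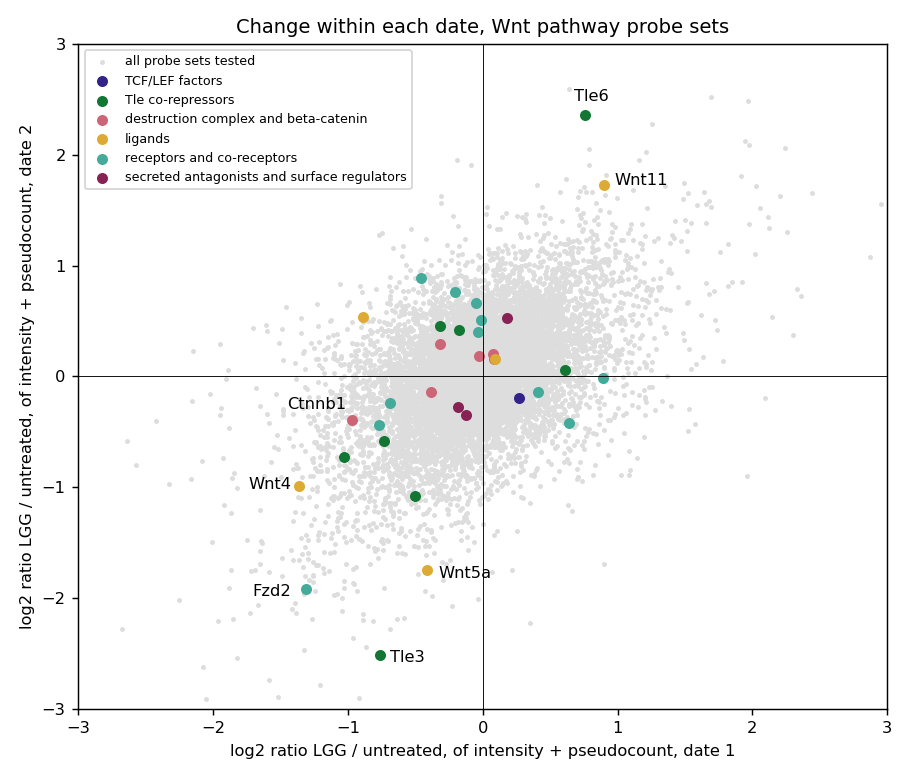
Log2 ratio of LGG to untreated at date 1 (x axis) and date 2 (y axis) for all 10333 probe sets tested (grey) and the 34 of the Wnt pathway, coloured by role, with the called genes named. Wnt11 and Tle6 lie in the upper right and Wnt4, Wnt5a, Fzd2, Tle3 and Ctnnb1 in the lower left, while 13 grey points fall outside the axes.

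Among receptors and co-receptors, 1 of 11 probe sets tested fell and 0 rose, against 3.86% and 2.69% of all tested. Fzd2, a Frizzled receptor for several Wnt ligands, had 3 probe sets that disagreed. Its probe set 1418534_at measured 451.9 and 536.8 untreated and 167.3 and 123.5 with LGG, both LGG arrays far below both untreated ones. It fell from 494 ± 60.0 to 145 ± 31.0, a log2 change of -1.61 ± 0.26 (n = 2 per group, limma adjusted p = 0.00271), 2.70-fold at date 1 and 4.35-fold at date 2. With 1 LGG array left out its log2 change was -1.80 or -1.43 and it remained called, and without the untreated arrays in turn it was -1.73 and -1.50 and was not. Probe set 1418532_at measured 1712.2 and 1821.5 untreated and 1478.5 and 3099 with LGG, and probe set 1418533_s_at 1286.6 and 1298.5 untreated and 1242.4 and 2074.6 with LGG. On both of these the LGG array of date 1 was the lowest of the 4 and that of date 2 the highest. Their log2 changes were 0.28 ± 0.22 (n = 2 per group, limma adjusted p = 0.539) and 0.31 ± 0.21 (limma adjusted p = 0.464), so the level of Fzd2 as a gene has no settled direction. Without LGG replicate 1 the first of them was called higher (0.80, limma adjusted p = 0.0437), and leaving out LGG replicate 2 gave -0.25 and -0.056.

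The remaining receptor probe sets tested did not pass, with log2 changes from -0.61 to 0.44. Fzd1 measured 230 and 268.5 untreated and 124.7 and 190.9 with LGG, lower on both LGG arrays (log2 change -0.61 ± 0.26, n = 2 per group, limma adjusted p = 0.206). Fzd6, a receptor known for the orientation of hair follicles, differed more between the dates than between the groups. Its probe set 1417301_at measured 796.3 and 2093.7 untreated and 1501.3 and 2072.7 with LGG, so the untreated array of date 1 stood apart. Its second probe set measured 280.3 and 381.7 untreated and 164.7 and 319.7 with LGG, and the log2 changes of the 2 probe sets were 0.44 and -0.46. Fzd7, Fzd8, the co-receptor gene Lrp6, Fzd3 and Fzd4 had log2 changes of 0.14, 0.24, 0.18, 0.22 and 0.11, and the log2 ratios of each had opposite signs at the 2 dates. The same was true of probe set 1417301_at of Fzd6 and of both Fzd2 probe sets that did not pass, so 3 of the 11 receptor probe sets tested had the same sign at both dates. The probe sets of Fzd5, Lrp5 and Lgr5 were too dim to be tested. Lgr5, a receptor for R-spondins that marks the stem cells of the crypt, measured 126.7 and 83.1 untreated and 56 and 45.2 with LGG, both LGG arrays below both untreated arrays and with log2 ratios of -0.90 and -0.62. Fzd9 had values at date 2 only, at 25.2 untreated and 107.4 with LGG.

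**Figure D4:**
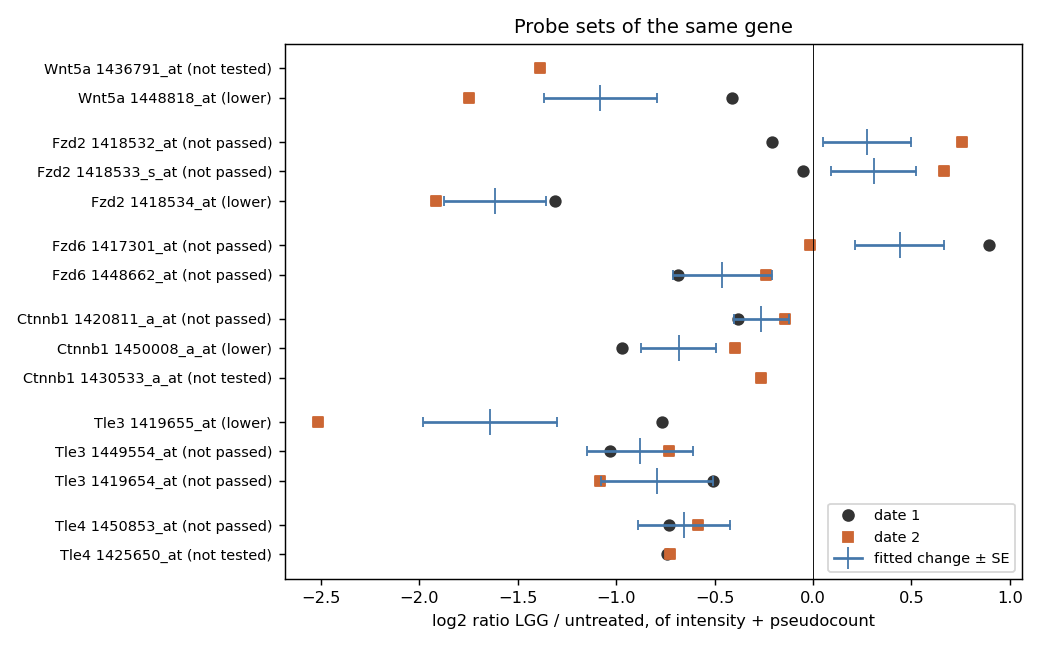
Log2 ratio of LGG to untreated at date 1 (black circles) and date 2 (orange squares) for each probe set of 6 genes, with the fitted change and its SE as blue bars where it was tested. The 3 probe sets of Fzd2 spread from -1.61 to 0.31 in the fit and the 2 of Fzd6 lie on opposite sides of 0, while those of Wnt5a, Ctnnb1, Tle3 and Tle4 all lie below it.

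None of the secreted antagonists and surface regulators passed: limma called 0 of 3 probe sets tested (0 at an unadjusted p under 0.05). Sfrp2, a secreted decoy that binds Wnt ligands and is typical of mesenchymal cells, measured 9647.4 and 6170.6 untreated and 8493.5 and 5097.9 with LGG. The dates differed more than the groups, and the log2 change was -0.23 ± 0.12 (n = 2 per group, limma adjusted p = 0.332). Sfrp4, a related decoy, measured 628.5 and 639 untreated and 573.2 and 497.8 with LGG (log2 change -0.24 ± 0.23, limma adjusted p = 0.615). Notum, a secreted enzyme that removes the lipid from Wnt ligands, measured 126.1 and 86.1 untreated and 146.2 and 135.5 with LGG (log2 change 0.36, limma adjusted p = 0.524). The 10 dimmer probe sets of this role, for Sfrp1, Sfrp5, Dkk1, Dkk2, Dkk3, Dkk4 and Rnf43, had means of 3.95 to 98.8. Dkk1, which blocks Lrp5 and Lrp6, lay between 29.6 and 39.6 on all arrays. Rnf43, which removes Frizzled receptors from the surface and is itself a Wnt target, lay between 4.3 and 8.1.

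In the destruction complex 1 of 6 probe sets tested fell and 0 rose, against 3.86% and 2.69% of all tested. The 1 that fell belongs to the substrate of the complex. Ctnnb1, which encodes beta-catenin, measured 2715.5 and 2941.6 untreated and 1372.7 and 2232.6 with LGG on probe set 1450008_a_at. Both LGG arrays were lower, by 1.98-fold at date 1 and 1.32-fold at date 2, and the log2 change was -0.68 ± 0.19 (n = 2 per group, limma adjusted p = 0.0492), just under the threshold. The call was lost without LGG replicate 1 (-0.34, limma adjusted p = 0.337) and kept without LGG replicate 2 (-1.03, limma adjusted p = 0.0302). It was lost under every other pseudocount, filter and scaling tried, with limma adjusted p from 0.0513 upward. A second probe set measured 6370.1 and 5952.6 untreated and 4887.2 and 5386.3 with LGG. It also had both LGG arrays lowest, but a smaller log2 change of -0.26 ± 0.14 that did not pass (limma adjusted p = 0.309). Another, with values at date 2 only, measured 1741 and 1446 (log2 ratio -0.26).

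The scaffold genes of the complex had small changes. Apc, whose loss starts most colon tumours, measured 544.3 and 543 untreated and 578.5 and 606.8 with LGG on the brighter of its tested probe sets (log2 change 0.12 ± 0.22, n = 2 per group, limma adjusted p = 0.824). Axin1 measured 863.4 and 637.7 untreated and 912.7 and 736 with LGG on the brighter of its probe sets (log2 change 0.14, limma adjusted p = 0.779), and the other had a log2 change of -0.01. Axin2, a direct target of beta-catenin often used to read out the pathway, had 1 probe set with a mean of 14.1 and another with values at date 2 only. The latter measured 179.7 untreated and 165.1 with LGG, a log2 ratio of -0.11.

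The TCF/LEF factors were represented by 1 tested probe set, of Tcf7l1, a factor that mostly represses Wnt targets. It measured 252 and 185.3 untreated and 308.2 and 158.8 with LGG, opposite in direction at the dates (log2 change 0.04 ± 0.26, n = 2 per group, limma adjusted p = 0.961). Lef1 measured 42 and 31.2 untreated and 21.4 and 11.7 with LGG and was too dim to be tested. Of Tcf7l2, the main TCF factor of the intestine, 2 probe sets were dim, with means of 17.4 and 35.6, and 2 had values at date 2 only. The brighter of the latter measured 101.6 untreated and 59.2 with LGG.

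Of the 8 probe sets of Tle genes tested, 1 rose and 1 fell, against 2.69% and 3.86% of all tested. Tle6, a divergent member best known from a protein complex of the mouse egg, measured 173.6 and 106.1 untreated and 311 and 647.3 with LGG. Both LGG arrays were above both untreated ones, and the rise was 1.79-fold at date 1 and 6.10-fold at date 2. It rose from 140 ± 47.7 to 479 ± 238, a log2 change of 1.56 ± 0.33 (n = 2 per group, limma adjusted p = 0.0134). Without LGG replicate 2 it was 1.06 and not called (limma adjusted p = 0.139), and without LGG replicate 1 it was 2.06 (limma adjusted p = 0.0115).

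Tle3, a full-length Groucho-type co-repressor, was lower on all 3 of its probe sets, and 1 passed. Probe set 1419655_at measured 565.1 and 491.3 untreated and 321.8 and 65.2 with LGG, with the LGG array of date 2 far below the rest. Its log2 change was -1.64 ± 0.34 (n = 2 per group, limma adjusted p = 0.0122), made up of -0.77 at date 1 and -2.51 at date 2. It was not called without LGG replicate 2 (-0.67, limma adjusted p = 0.182), and it was -2.61 without LGG replicate 1 (limma adjusted p = 0.00302). Probe set 1449554_at measured 246.7 and 190.7 untreated and 107.9 and 104.8 with LGG, a change of like size at both dates (log2 change -0.88 ± 0.27, limma adjusted p = 0.071). Probe set 1419654_at had a log2 change of -0.79 (limma adjusted p = 0.126). The groups did not overlap on any of the 3, which read the same RNA and are not independent.

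Tle4, a close relative of Tle3, measured 509.2 and 558.1 untreated and 296.6 and 363.9 with LGG, with both LGG arrays lower and even log2 ratios of -0.73 and -0.58. It did not pass (log2 change -0.66 ± 0.23, n = 2 per group, limma adjusted p = 0.123). A second Tle4 probe set, too dim to be tested, measured 105.7 and 127.6 untreated and 53.1 and 67 with LGG. Tle1 had a log2 change of 0.34 (limma adjusted p = 0.513), and a probe set of it with values at date 2 only measured 467.1 untreated and 704 with LGG. Tle5, a short member that lacks the repeat domain of the others, measured 1623.3 and 960.9 untreated and 1431.5 and 1289.4 with LGG (log2 change 0.12, limma adjusted p = 0.813). Tle2 had a log2 change of 0.07 and opposite directions at the dates.

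In all, 38 of the 85 probe sets were too dim to be tested and 13 had values at date 2 only. Of these 13, 7 were higher and 6 lower with LGG, with log2 ratios from -1.39 for Wnt5a to 1.40 for Fzd9, and with 1 array per group there is no test. No untested probe set with values at both dates was changed 2-fold the same way at both, and among those tested 2 were 2-fold lower at both dates (1.40% of all tested), Wnt4 and Fzd2, and 0 were 2-fold higher (0.948% of all tested).

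The promoters of 4 of the called genes are printed to show the DNA just upstream of ligand and Tle genes that moved in opposite directions. RefSeq promoter sequences (GRCm38.p6) were matched for 35 of the 54 genes, Wnt5a and Fzd2 not among them. Each line gives the 250 bases before the annotated start, 5′ to 3′ on the gene's strand, and capitals mark CTTTGA, the core of the TCF/LEF motif, on either strand. They are Wnt11 (chr7:98834862-98835111, plus strand, the first of 2 starts), Wnt4 (chr4:137277385-137277634, plus strand), Tle3 (chr9:61372116-61372365, plus strand) and Tle6 (chr10:81600901-81601150, minus strand, the first of 2 starts).
Wnt11: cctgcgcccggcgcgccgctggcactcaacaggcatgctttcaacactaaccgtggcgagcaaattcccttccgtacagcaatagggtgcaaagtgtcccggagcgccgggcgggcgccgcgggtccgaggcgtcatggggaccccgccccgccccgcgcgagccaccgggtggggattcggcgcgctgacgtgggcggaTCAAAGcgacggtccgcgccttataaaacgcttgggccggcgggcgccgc
Wnt4: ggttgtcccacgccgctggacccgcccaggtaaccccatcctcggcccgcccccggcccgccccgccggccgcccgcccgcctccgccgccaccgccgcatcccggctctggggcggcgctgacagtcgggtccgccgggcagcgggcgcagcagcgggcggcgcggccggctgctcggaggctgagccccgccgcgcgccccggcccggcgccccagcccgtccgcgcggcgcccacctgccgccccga
Tle3: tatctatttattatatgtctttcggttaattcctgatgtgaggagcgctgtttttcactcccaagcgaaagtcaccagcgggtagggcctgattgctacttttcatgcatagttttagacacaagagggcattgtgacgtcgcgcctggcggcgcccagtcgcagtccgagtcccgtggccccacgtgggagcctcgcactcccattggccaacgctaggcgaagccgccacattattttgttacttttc
Tle6: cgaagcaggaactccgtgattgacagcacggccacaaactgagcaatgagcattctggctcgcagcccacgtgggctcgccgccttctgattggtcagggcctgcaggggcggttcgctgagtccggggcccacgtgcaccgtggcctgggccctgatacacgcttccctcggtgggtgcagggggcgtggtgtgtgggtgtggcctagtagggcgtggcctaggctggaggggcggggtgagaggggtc
The Wnt11 window held the core once, on the reverse strand, starting 50 bases before the start, and the windows of Wnt4, Tle3 and Tle6 held none. The windows of the second Wnt11 and Tle6 starts, not printed, held none either. Over all genes of the pathway, 5 of 46 windows (10.9%) held CTTTGA on either strand, against 13.8% of all 32851 windows of this length. The second motif searched, GAANNTTC, a pair of inverted units of the heat shock element, lay in 3 of the 46 (6.52%) against 6.69% of all. The 5 windows with the TCF/LEF core belong to Dkk1, Fzd1, Lef1, Wnt11 and Wnt5b. The Wnt4 window had a GC content of 85.2% and 44 CpG sites, and that of Tle3 52.4% and 17. A match is a description of the sequence, and neither motif was seen more often in these windows than in all.

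Other genes of the pathway were read from 5 further lists, of which 104 probe sets for 69 genes were tested. Of these 6 rose and 4 fell, or 9.62%, against 6.55% of all tested, and the median log2 change was -0.01. The 10 called belong to 7 genes, and 2 probe sets each to Apcdd1, Csnk1e and Ccn4. Limma without an intensity trend called 5 of the 104, against 3.66% of all. Without date as a block 2 of the 10 were called, Rspo1 (limma adjusted p = 0.0387) and 1 of Ccn4 (limma adjusted p = 0.0421). The fits with an array left out lack the block too, so a call lost there is not tied to that array. Without untreated replicate 1 or untreated replicate 2 limma called 0 of the 104 and 0 of all (729 and 818 of all at an unadjusted p under 0.05). Without LGG replicate 1 it called 8, against 6.17% of all, and without LGG replicate 2 it called 6, against 3.13% of all.

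Among secretion and surface regulators, 2 probe sets rose and 1 fell of 16, against 2.69% and 3.86% of all tested. Rspo1, a secreted R-spondin that strengthens Wnt signals through Lgr receptors, measured 947 and 1169.4 untreated and 286.4 and 395.3 with LGG. The fall was even across the dates, with log2 ratios of -1.64 and -1.51, and the fitted change was -1.57 ± 0.22 (n = 2 per group, limma adjusted p = 0.00121). It was still called with either LGG array left out (-1.36 without LGG replicate 1 and -1.79 without LGG replicate 2). Apcdd1, a membrane protein that inhibits Wnt signals, measured 66.1 and 96.5 untreated and 215.8 and 270.4 with LGG on probe set 1418382_at. Its log2 ratios were 1.40 and 1.28 and its fitted change 1.34 ± 0.27 (limma adjusted p = 0.0104). A second Apcdd1 probe set rose too, by a log2 change of 1.17 ± 0.26 (limma adjusted p = 0.0173). With the filter at 50% neither of these Apcdd1 probe sets was tested. Leaving out LGG replicate 2 gave Apcdd1 changes of 1.19 and 1.07 and neither passed, and without LGG replicate 1 the first was 1.49 and passed and the second was 1.26 and did not. The brightest others, Wls, which carries Wnt ligands to the surface, and Sdc1, did not pass. On their brightest probe sets with values at both dates the log2 changes were -0.21 and -0.34. In this list 6 had an unadjusted limma p under 0.05, and those of them not called were lower. They were the other tested probe sets of Sdc1 (-0.54 and -0.53, limma adjusted p = 0.202 and 0.229) and a probe set of Ryk (-0.49, limma adjusted p = 0.189).

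Of 22 probe sets of transducers and the destruction complex, 3 rose and 0 fell, against 2.69% and 3.86% of all tested. Gsk3b, the kinase that marks beta-catenin for destruction, measured 402 and 243.3 untreated and 762.4 and 531.8 with LGG. Both LGG arrays were above both untreated ones, with log2 ratios of 0.88 and 1.05 and a fitted change of 0.97 ± 0.23 (n = 2 per group, limma adjusted p = 0.0247). Csnk1e, a casein kinase that acts on Dishevelled, rose on both of its probe sets. The first measured 602.6 and 549.1 untreated and 1312.6 and 936 with LGG (log2 change 0.92 ± 0.22, limma adjusted p = 0.0242), and the second had a log2 change of 0.90 ± 0.23 (limma adjusted p = 0.0333). Without LGG replicate 1 none of the 3 was called (0.72 for Gsk3b, 0.68 and 0.63 for Csnk1e), and without LGG replicate 2 Gsk3b was not (1.22, limma adjusted p = 0.0776).

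Of 25 probe sets of intestinal and colonic Wnt targets, 3 fell and 0 rose, or 12% called against 6.55% of all tested. In this list 6 had an unadjusted limma p under 0.05, and those of them not called were higher. They were both of Cd44 (log2 changes 0.545 and 0.538, limma adjusted p = 0.135 and 0.231) and 1 of Fosl1 (0.902, limma adjusted p = 0.131). Ccn4, a matricellular protein first found as a gene induced by Wnt1, fell on both of its probe sets. Probe set 1448594_at measured 2271.5 and 2093.8 untreated and 933.2 and 558.5 with LGG, a log2 change of -1.56 ± 0.21 (n = 2 per group, limma adjusted p = 0.000905). Probe set 1448593_at measured 2839.3 and 2715.1 untreated and 1981.6 and 924.2 with LGG (log2 change -1.02 ± 0.23, limma adjusted p = 0.0165), and without LGG replicate 2 it was -0.48 and not called. Met, the receptor of hepatocyte growth factor, measured 998.9 and 969.5 untreated and 324.9 and 613.6 with LGG (log2 change -1.09 ± 0.25, limma adjusted p = 0.0202), and without LGG replicate 1 it was -0.66 and not called. Myc and Ccnd1, named after their values were seen as well-known targets, did not pass, with log2 changes of 0.24 for Myc and 0.09, -0.32 and -0.28 for Ccnd1.

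Of 26 probe sets of planar polarity and beta-catenin-independent signalling, 1 rose, against 2.69% of all tested. Camk2g, a calcium-dependent kinase, measured 424.5 and 639.1 untreated and 1100.8 and 996.6 with LGG (log2 change 0.97 ± 0.24, n = 2 per group, limma adjusted p = 0.0262), and its other probe set had a log2 change of 0.60 that did not pass. Without LGG replicate 1 the first was 0.90 and without LGG replicate 2 it was 1.04, and neither passed. Of 15 probe sets of nuclear and cytoplasmic modulators limma called 0 (1 at an unadjusted p under 0.05, of Ctbp1, a co-repressor, with a log2 change of -0.50).

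**Figure D5:**
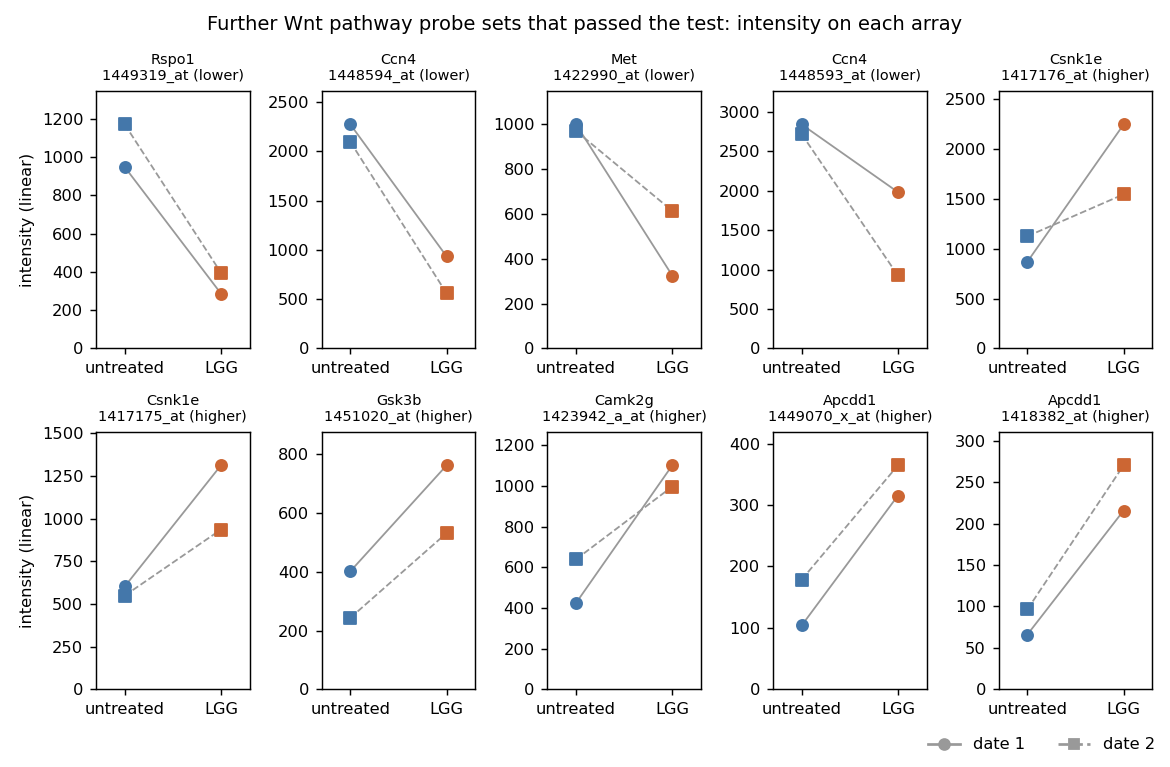
Intensity (linear axis from 0) on each array for the 10 probe sets of further Wnt pathway genes that passed the test, with circles and solid lines for date 1 and squares and dashed lines for date 2. Rspo1, Ccn4 and Met lie lower on both LGG arrays, and Csnk1e, Gsk3b, Camk2g and Apcdd1 higher.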

How the data were processed

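RNA of untreated YAMC cells and of cells given LGG conditioned medium for 16 h was measured on 4 mouse 430A arrays, and each array's group came from its title. The authors deposited linear intensity values, and the software, scaling and filters are not given in the sources used here. Both arrays of date 1 lacked values for the same 6307 of 22690 probe sets. All 54 gene symbols of the platform annotation matched RefSeq (GRCm38.p6).

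Values were taken as log2(intensity + 25.2), 5% of the mean trimmed by 2% at each end. A mean of 101, or 20% of that trimmed mean, was the minimum for testing, and 64 controls were set aside. limma 3.58.1 in R 4.3.3 fitted group and date with an intensity trend. P-values were two-sided and adjusted by Benjamini and Hochberg's method across the 10333 probe sets, at 0.05. The dates pair the arrays, per the labels, and the date differences of the 2 groups correlated at 0.27 across probe sets. The fit was tested on simulated data. Alternatives were no date block, other pseudocounts, filters and scalings, no trend and each array left out. The text names probe sets that passed or were 2-fold changed at both dates, all others of those genes, the 3 brightest of each role, and further members to account for each role. The members and lists were chosen with earlier results of these data known. The number of arrays limits the precision. Figures were drawn with matplotlib 3.10.9.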

Additional observations from a re-analysis of the deposited data

How the results depend on the processing

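Of the Wnt pathway probe sets, 2 were called higher and 5 lower, with 10 of the further lists and 677 of all probe sets tested. Without the date block these counts were 0, 1, 2 and 97. With no filter on dim probe sets limma called 0 in each case (17 Wnt pathway and 2296 of all at an unadjusted p under 0.05). Without a trend they were 2, 3, 5 and 378. The lower calls numbered 3 with a pseudocount of 1%, a filter at 50%, quantile normalization or median scaling, where Wnt5a and Ctnnb1 were lost. With an array left out, in fits without the block, the counts ranged from 0 to 3 higher, 0 to 3 lower, 0 to 8 of the further lists and 0 to 638 of all, and limma called 0 without either untreated array (729 and 818 of all at an unadjusted p under 0.05). No called probe set changed direction under any of these alternatives. Of the others, named for brightness or as a further probe set of a called gene, some did with an array left out: the ranges were -0.24 to 1.12 for Fzd6, -0.60 to 0.14 for Sfrp2, -0.39 to 0.47 for Tcf7l1, -0.25 to 0.49 for Tle5, -0.014 to 0.27 for Wnt7b, and -0.25 to 0.80 and -0.056 to 0.67 for Fzd2 (1418532_at and 1418533_s_at). Those fits lack the date block, so they also take in differences between the dates. Within the dates the log2 ratios kept the same sign for Sfrp2 (-0.18 and -0.27) and Wnt7b (0.09 and 0.16). The other probe sets just listed had opposite signs at the dates. The cause of the shifts was not tested. Without detection calls, signal over background is unknown, which limits every dim gene, most Wnt ligands included.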
